A study of Mus musculus with 24 samples.

Results

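The step from embryonic stem (ES) cells to neuronal progenitors (NP) was followed in wildtype mouse cells of a mixed 129Sv-C57Bl/6 strain, by 2 arrays titled as wildtype NP and 2 titled as wildtype ES, which are 4 of the 24 arrays of the series. These are all the ES and NP arrays that the series has for this line. Both groups share strain and genotype and differ, as far as the labels say, in stage alone. The cells were differentiated in vitro by a published protocol in which, as general background, floating aggregates of ES cells are treated with retinoic acid and become progenitors of the radial glia type; the labels give neither dose nor day, and do not say whether the line is a clone. A further 2 arrays of terminal neurons (TN) of the same cells lie in the same table of 6 arrays and entered the fit only for its estimate of the spread. The other 18 arrays of the series hold cells of the strain Black Agouti 129 labelled RESTko, RESTwt or RESThet on another platform, and from these the 3 ES and 3 NP arrays labelled RESTwt are set beside the mixed-strain step at the end. The labels call the arrays biological replicates without saying that they came from separate cultures, so p-values measure only the spread between these arrays.

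ES cells hold themselves in the pluripotent state through a network of transcription factors around Pou5f1 (Oct4), Sox2 and Nanog, fed by LIF, BMP and FGF signals. Retinoic acid, a vitamin A derivative, binds nuclear receptors that sit on DNA as pairs and switches on its own degrading enzymes, its binding proteins and the 3′ ends of the Hox clusters, the genes that give the hindbrain and spinal cord their order from head to tail. Neural progenitors keep dividing under Notch signalling, while proneural factors of the bHLH family push single cells into neuronal differentiation. REST, the repressor after which the series is named, keeps neuronal genes silent in cells that are not neurons.

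Values are log2 signals of probe sets (groups of probes against a transcript), so a difference of 1 is a 2-fold difference, and a gene is represented by its probe set of highest mean. A gene was called where limma's adjusted p (Benjamini-Hochberg over all 18194 genes) was under 0.05. Of 18194 genes, 7071 (38.9%) were called, 3617 higher (19.9%) and 3454 lower (19.0%) at NP. A difference of at least 2-fold was called for 3215 genes (17.7%), 1716 of them higher and 1499 lower. At 8-fold or more the numbers were 227 higher and 197 lower, and at 64-fold or more 16 higher and 19 lower. The median difference of all genes was -0.01, the median SE of a difference was 0.15, and the smallest difference called was 0.36 in size. Arrays of the same stage correlated across probe sets with r = 0.9951 at ES and 0.9944 at NP, and ES with NP arrays with r between 0.913 and 0.920; these are correlations across probe sets, which are not independent replicates. The arrays of both groups did not overlap for 68.0% of all genes, so lack of overlap between 2 and 2 arrays says little about a single gene.

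**Figure D1:**
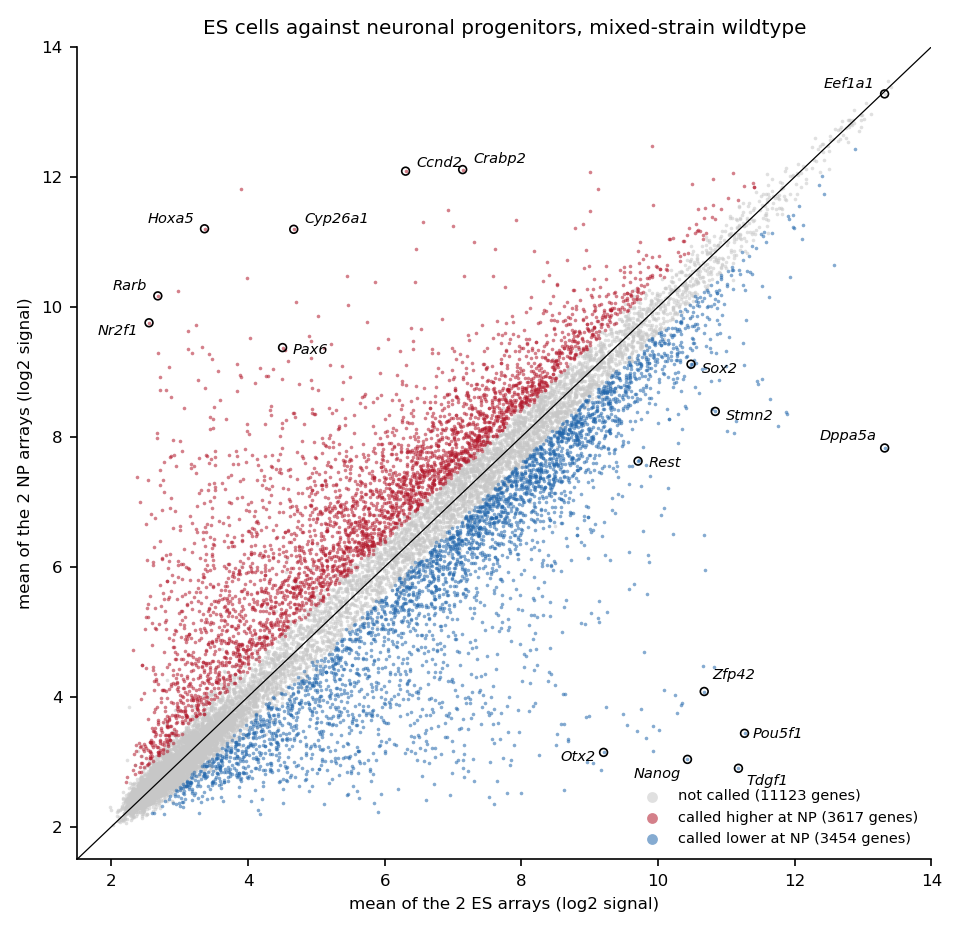
Mean log2 signal of each of the 18194 genes in the 2 ES arrays (x axis) against the 2 NP arrays (y axis), with genes called higher at NP in red, called lower in blue and not called in grey. Pou5f1, Nanog and Tdgf1 lie at the lower right, near the floor of the NP arrays, while Hoxa5, Rarb and Nr2f1 rise from the floor of the ES arrays, and Eef1a1 lies on the line of equal signal.

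The labelled cell types were borne out by their defining markers. All 8 of 8 ES cell markers (Dppa5a, Esrrb, Fgf4, Klf4, Nanog, Pou5f1, Tdgf1, Zfp42) fell, from a mean of 10.7 in each ES array to 4.22 and 4.26 in the NP arrays. All 8 of 8 radial glia markers (Fabp7, Hes5, Nes, Pax6, Prom1, Slc1a3, Sox1, Vim) rose, from 5.89 and 5.72 to 8.39 and 8.67. Of 7 neuron markers 6 rose, from a mean over the 7 of 5.52 and 5.58 to 6.90 and 7.26, against 10.7 in each TN array. Of 6 endoderm markers 4 rose, which is described further on. Markers of blood and microglia did not pass the test for any of 5 genes, with means of 3.03 to 3.18 in the ES and NP arrays, and of 4 endothelial markers none rose and Pecam1 and Tek fell. In the wider list of 12 endothelial genes 2 rose (16.7%), the VEGF receptor Flt1 by 1.84 and Emcn by 0.67, and 3 fell (25%). Both shares lay near those of all genes, 19.9% higher and 19.0% lower. The call of Flt1 was lost without ES array a (1.59) or NP array b (1.63). RNA was taken from whole cultures, so in every result fewer cells of a type and less RNA per cell cannot be told apart.

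The pluripotency network was lost. Of 36 measured core and naive pluripotency factors 35 fell and none rose, against 19.0% of all genes called lower, with a median difference of -4.69; Lin28b, at 2.64 and 2.60 in the ES arrays and 2.52 and 2.31 in the NP arrays, did not pass the test. Tdgf1 (Cripto, a co-receptor for Nodal) had the largest fall of any gene named here. Its signal was 11.21 and 11.14 in the ES arrays and 2.90 in both NP arrays. That is a fall of 8.28 (SE 0.15, 311-fold, adjusted p = 2.12e-08, limma). Pou5f1, the POU factor at the centre of the network, went from 11.20 and 11.33 to 3.33 and 3.54, a difference of -7.83 (SE 0.14). Nanog, its homeodomain partner, went from 10.41 and 10.45 to 3.21 and 2.86, a difference of -7.40 (SE 0.15). In the NP arrays all 3 genes were within 1 unit of their level in the terminal neurons, where Pou5f1 measured 3.07 and 3.18. Fgf4, a growth factor that Pou5f1 and Sox2 control, fell by 6.77, and the nuclear receptor Esrrb fell by 6.54. Zfp42 (Rex1), a classic marker of undifferentiated cells, measured 10.69 and 10.66 in the ES arrays and 4.02 and 4.14 in the NP arrays.

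The fall was not equal across the network. Sox2, which ES cells and neural progenitors both use, measured 10.30 and 10.66 at ES and 9.07 and 9.17 at NP, a fall of 1.37 (SE 0.28, adjusted p = 0.00397, limma). Lin28a, an RNA-binding protein that blocks let-7 microRNAs, fell by 1.93, Sall4 by 1.48 and Rif1 by 1.46. Trim28, a corepressor found in most cells, fell by 0.44. Dppa5a fell by 5.49 but kept a signal of 7.92 and 7.74 in the NP arrays. The remaining members among the 12 largest falls were Dppa4 (-6.47), L1td1 (-6.37) and Fbxo15 (-6.37), together with Etv5 (-6.52), a transcription factor downstream of FGF, the carbonyl reductase Cbr3 (-6.46) and Dnmt3l (-6.46).

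**Figure D2:**
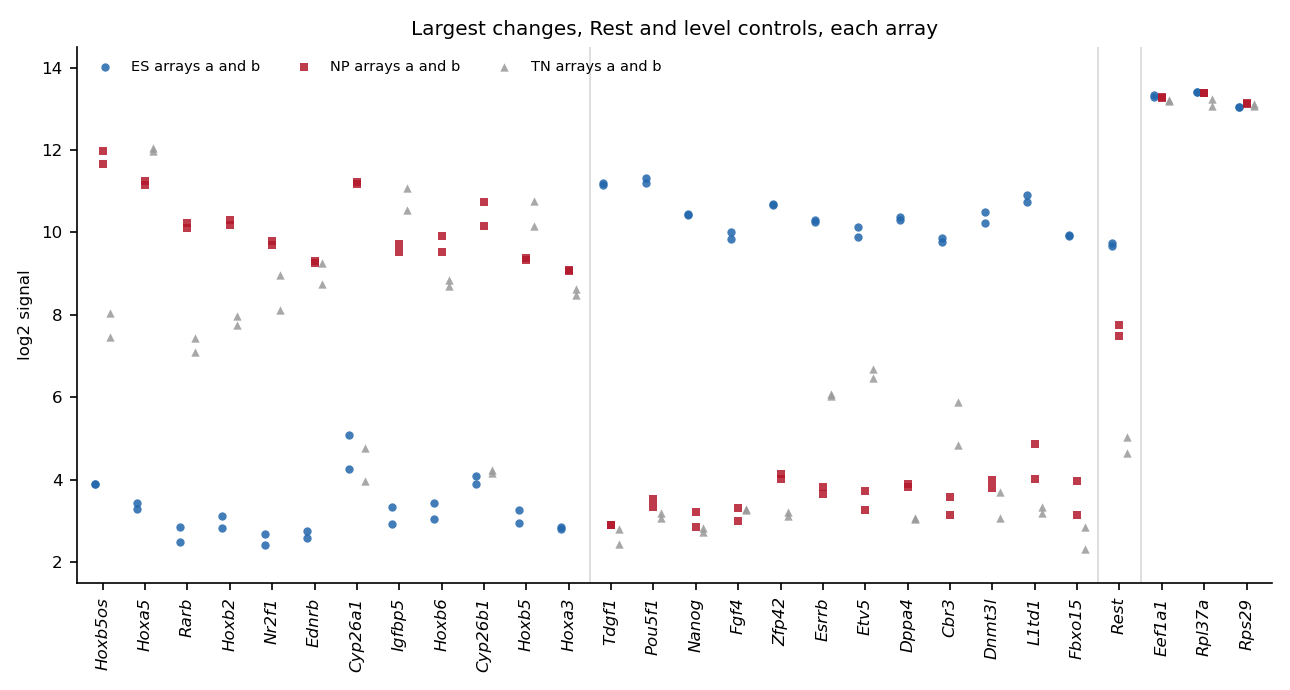
Log2 signal of each ES (circles), NP (squares) and TN (triangles) array for the 12 genes with the largest rise, the 12 with the largest fall, Rest and 3 level controls. ES and NP arrays lie apart for each of the 24 changed genes, Cyp26a1 and Cyp26b1 are high in the NP arrays alone of the 3 stages, and the level controls Eef1a1, Rpl37a and Rps29 stay between 13 and 13.5 in the ES and NP arrays.

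The promoter of Zfp42 is shown because it is the only one of 23 pluripotency factors with a promoter in the RefSeq table that holds the octamer ATTTGCAT, the word that Pou5f1 and its relatives bind, within 250 bases before and 50 bases after the start. The octamer was searched on both strands and was found for 4.35% of these 23 genes, for 1.97% of all 27025 genes in the table, for 5.92% of 152 genes called at least 8-fold lower and for 4.24% of 165 genes called at least 8-fold higher. The 250 bases before the start of Zfp42 lie at chr8:43307010-43307259 on the minus strand of GRCm38.p6, and capitals mark the octamer, from 186 to 179 bases before the start.
Zfp42: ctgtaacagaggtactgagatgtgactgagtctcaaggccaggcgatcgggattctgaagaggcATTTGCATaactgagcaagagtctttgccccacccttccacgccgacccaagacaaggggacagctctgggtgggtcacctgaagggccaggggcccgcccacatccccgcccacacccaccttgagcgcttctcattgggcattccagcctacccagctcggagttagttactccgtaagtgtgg
The match is a description of these letters, not a measured site.

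Genes of the germline and of DNA methylation fell with the network. Of 19 measured germline genes 14 fell and 1 rose, with a median of -1.89, or -3.04 without the dimmest 30% of genes, which left 9 called lower of 12. Tdrd12, needed to silence transposons, measured 9.38 and 8.95 at ES and 3.0 and 2.73 at NP, Sycp3, of the meiotic chromosome axis, 7.11 and 7.93 against 2.54 and 2.36, and the testis cytochrome Cyct 8.59 and 8.58 against 3.97 and 3.19. The member that rose was Stra8, named for its response to retinoic acid, from 4.48 and 4.68 to 9.76 and 8.56. Of 17 enzymes of DNA methylation and related genes 10 fell and 3 rose, but 5 were called lower without ES array a and 6 without ES array b or either NP array. Dnmt3l, a cofactor without catalytic activity, went from 10.22 and 10.49 to 4.0 and 3.79, the de novo methylase Dnmt3b from 9.65 and 9.66 to 5.76 and 5.70, and the 5-methylcytosine oxidase Tet1 from 10.28 and 9.89 to 6.89 and 6.93. The maintenance enzyme Dnmt1 fell by 0.41, and Dnmt3a differed by -0.41 without passing the test. Gadd45g rose by 1.72. None of 7 measured genes listed for the 2-cell state passed the test. The brightest, Eif1ad, measured 8.44 and 8.31 at ES and 8.39 and 8.44 at NP, a difference of 0.04. Whether it marks the 2-cell state was not tested. Zfp352, the next, differed by -0.01. The list's median signal was 2.75 and 2.98 in the ES arrays, below the 3.83 of all probe sets in each. The lack of calls therefore says little about the dim members.

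Of 11 factors of the primed epiblast, the state between ES cells and the germ layers, 5 fell and 1 rose. Otx2, which is also a head and forebrain gene, measured 9.18 and 9.23 at ES and 2.96 and 3.33 at NP, a fall of 6.06 (SE 0.16). Pou3f1 (Oct6) fell by 2.06, and Sox3, which early neural progenitors use as well, rose by 4.07. Fgf5, the usual marker of primed cells, differed by -0.19 between signals under 3.6 and did not pass the test.

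Genes of retinoic acid signalling were among the largest rises. Of 23 measured receptors, enzymes and response genes 18 rose and 1 fell, against 19.9% and 19.0% of all genes, with a median of 2.79. Among the receptors, Rarb stood first: its signal was 2.86 and 2.50 in the ES arrays and 10.23 and 10.10 in the NP arrays, a rise of 7.49 (SE 0.17, 180-fold, adjusted p = 3.8e-08, limma). Rara rose by 0.86 and the partner receptor Rxra by 2.35, while Rarg, the receptor of ES cells, fell by 1.78, from 6.92 and 7.04 to 5.42 and 4.97. Rxrb and Rxrg did not pass the test.

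The enzymes that degrade retinoic acid rose too. Cyp26a1 measured 4.26 and 5.08 at ES and 11.16 and 11.22 at NP, a rise of 6.53 (SE 0.31), and Cyp26b1 4.09 and 3.89 against 10.16 and 10.73. In the terminal neurons both were back near the ES level, Cyp26a1 at 3.96 and 4.77 and Cyp26b1 at 4.24 and 4.17. The binding proteins Crabp2 and Crabp1, which carry retinoic acid in the cell, rose by 4.97 and 3.69. Dhrs3, which turns retinal back to retinol, rose by 3.38, the retinol dehydrogenase Rdh10 by 1.92, and the synthesizing enzymes Aldh1a1 by 3.58 and Aldh1a2 by 1.45, while Aldh1a3 differed by 0.01. Tshz1, a zinc finger gene of the list, rose by 5.49. Rbp4, which carries retinol in blood and is made by endoderm, rose by 4.64, but its NP arrays lay apart, at 8.17 and 9.71.

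A classic retinoic acid response element, the DR5, is a direct repeat of the half-site AGGTCA with 5 bases between the repeats. The substitutions A1G and G3T, with positions counted from the 5′ end of the half-site, were allowed here. Searched on both strands, it was found in the promoters of 31 of 27025 genes (0.115%). Among the 19 retinoic acid genes with a promoter in the table it was found in Rarb and Cyp26a1 (10.5%), and among 22 Hox genes in 0. The list holds genes chosen for their part in retinoic acid signalling and response, and both matches use an allowed substitution. The 10.5% is therefore a description, not a test. Of the 31 genes 11 were measured here, of which 3 rose and 2 fell, near the shares of all genes (19.9% higher and 19.0% lower). Both promoters are shown because the receptor and the enzyme are the most changed members of their classes; capitals mark the DR5. The 250 bases before the start of Rarb lie at chr14:16575477-16575726 on the minus strand of GRCm38.p6, with the repeat 53 to 37 bases before the start. Those of Cyp26a1 lie at chr19:37697558-37697807 on the plus strand, with the repeat on the opposite strand, 32 to 16 bases before the start.
Rarb: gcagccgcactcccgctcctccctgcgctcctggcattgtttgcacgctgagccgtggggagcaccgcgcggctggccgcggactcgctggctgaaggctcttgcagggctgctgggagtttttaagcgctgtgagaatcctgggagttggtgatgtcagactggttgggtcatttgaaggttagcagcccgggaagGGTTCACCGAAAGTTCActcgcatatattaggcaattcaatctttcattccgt
Cyp26a1: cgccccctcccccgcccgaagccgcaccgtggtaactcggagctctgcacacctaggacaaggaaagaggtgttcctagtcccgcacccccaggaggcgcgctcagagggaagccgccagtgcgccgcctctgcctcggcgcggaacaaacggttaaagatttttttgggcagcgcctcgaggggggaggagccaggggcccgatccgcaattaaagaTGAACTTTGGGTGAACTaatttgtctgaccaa
A match describes the letters, and no match says only that these letters are not in this window.

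In the mixed-strain step the Hox genes split by their place in the cluster. Of 33 measured Hox genes 18 rose and 1 fell, with a median of 2.55, or 4.41 without the dimmest 30% of genes. In paralog groups 1 to 3, at the 3′ end of the clusters, 7 of 7 rose with a median of 4.58, and in groups 4 to 6, 8 of 8 with a median of 5.80. In groups 7 to 9 the risers were 2 of 8, Hoxb9 and Hoxd8, with a median of 0.13. In groups 10 to 13 Hoxb13 rose and Hoxc13 fell among 10, with a median of -0.09. In the RESTwt step, on another platform, all 8 genes of groups 7 to 9 were called higher, where 31.0% of all genes were. Their differences there lay between 0.29 (Hoxd9) and 5.08 (Hoxb9), so the split after group 6 holds for the mixed-strain arrays only. Hoxa5 had the largest rise, from 3.45 and 3.28 to 11.16 and 11.25, a difference of 7.84 (SE 0.13, 229-fold, adjusted p = 2.12e-08, limma). Hoxb2 measured 3.12 and 2.82 at ES and 10.17 and 10.30 at NP, Hoxb6 3.04 and 3.44 against 9.54 and 9.91, Hoxb5 3.27 and 2.96 against 9.37 and 9.34, and Hoxa3 2.81 and 2.86 against 9.06 and 9.08. The long RNA Hoxb5os, transcribed from the strand opposite Hoxb5, rose most of all named genes, from 3.89 and 3.90 to 11.65 and 11.97 (7.92, SE 0.20).

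Hoxb1, the most 3′ member of its cluster, measured 7.83 and 6.84 at NP, where the arrays lay 1 unit apart, and was back at 2.70 and 2.59 in the terminal neurons. Hoxb9 measured 3.04 and 3.28 at ES and 7.13 and 8.03 at NP, and Hoxd8 3.28 and 3.40 against 5.73 and 6.04. Between them, Hoxa7 measured 5.44 and 5.22 at ES and 5.68 and 5.66 at NP and did not pass the test (adjusted p = 0.101, limma), and Hoxb7, with a single probe set, measured 3.74 and 3.77 against 3.87 and 3.73. Hoxb13, the 5′ member that rose, went from 3.09 and 3.36 to 5.0 and 4.03. The cofactors that Hox proteins bind DNA with rose as well: Meis2 from 3.20 and 3.16 to 9.31 and 9.28, Meis1 by 4.96 and Pbx3 by 2.79.

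**Figure D3:**
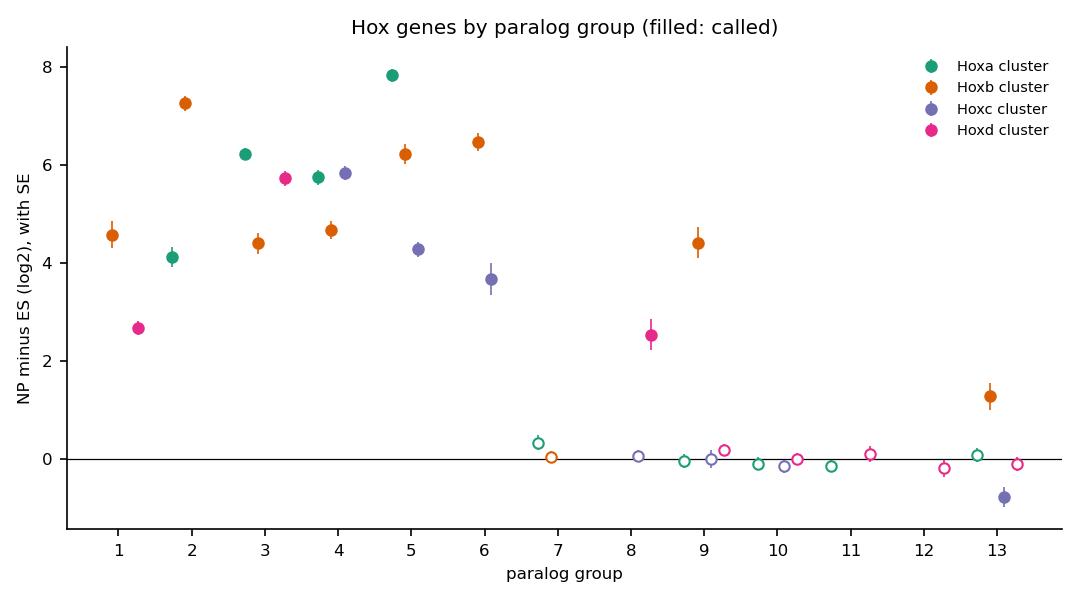
Difference between NP and ES (log2, with its SE) for the 33 measured Hox genes, placed by paralog group from the 3′ end (1) to the 5′ end (13) and coloured by cluster, with filled circles for called genes. The 15 genes of groups 1 to 6 all lie at 2.69 or above, while of 18 genes in groups 7 to 13 only Hoxd8, Hoxb9 and Hoxb13 rise above 1.

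Genes of neural progenitors and radial glia rose almost as a block. Of 30 measured 27 rose and 1, Sox2, fell, with a median of 2.80; Six3 and Rax, of the eye field and forebrain, differed by 0.01 and 0.05. Nr2f1 (COUP-TFI), a nuclear receptor that retinoic acid induces, went from 2.41 and 2.69 to 9.80 and 9.71, a rise of 7.21 (SE 0.25). Pax6, the homeodomain factor by which radial glia are known, measured 4.94 and 4.07 at ES, 9.28 and 9.47 at NP and 5.39 and 5.53 at TN. The intermediate filament gene Nes rose by 1.75, from 6.67 and 6.56 to 8.16 and 8.58, Vim by 3.07, and the fatty acid binding protein Fabp7 by 2.37. Ednrb, an endothelin receptor found on progenitors and crest cells, rose by 6.61, and Igfbp5, which binds insulin-like growth factors, by 6.50.

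Proneural factors came up at the same time. Of 26 measured bHLH and associated factors 18 rose and 2 fell, with a median of 1.63. Neurog1 measured 2.58 and 2.83 at ES and 8.68 and 8.76 at NP, a rise of 6.01 (SE 0.14, adjusted p = 3.91e-08, limma), and Neurog2 3.19 and 2.65 against 7.87 and 7.59. Both were at the ES level again in the terminal neurons, Neurog1 at 2.73 and 2.62. Nhlh2, which acts after them, rose by 5.31 and Ebf3 by 3.28. Neurod1 went against these: it was already at 8.76 and 8.80 in the ES arrays and fell by 0.46. Factors of the cerebral cortex, Tbr1, Neurod2 and Neurod6, differed by 0.03, 0.02 and 0.10 and did not pass the test, and Eomes fell by 1.04.

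In the Notch pathway 12 of 23 genes rose and 2 fell. Of the targets, Hes5 went from 4.89 and 4.46 to 8.06 and 8.66, the feedback inhibitor Nrarp from 4.42 and 4.44 to 7.48 and 7.79, and Hes1 rose by 1.30. Of the ligands, Dll1 rose by 1.99 and Dll3 by 1.83, while Jag1 differed by 0.15 and Jag2 fell by 0.67. Among the receptors Notch1 rose by 1.53, and Notch2, Notch3 and Notch4 did not pass the test. The glycosyltransferase Lfng, which tunes the receptors, rose by 1.91, and the DNA-binding partner Rbpj fell by 1.30. Of 18 Sox factors 10 rose and 2, Sox15 and Sox2, fell; Sox11 rose by 3.27, Sox1 by 2.83 and Sox9, of gliogenic progenitors, by 2.56.

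Regional factors that rose included many of hindbrain and spinal cord. Of 44 measured dorsoventral factors of these regions 23 rose and 2 fell, with a median of 0.64, or 1.42 without the dimmest 30% of genes, while of 17 forebrain and midbrain factors 3 rose, near the share over all genes, and 2 fell. Irx3 measured 3.27 and 3.37 at ES and 9.12 and 9.64 at NP, and Dbx1, of the middle domains of the neural tube, 3.56 in both ES arrays against 9.14 and 8.89. Irx5 rose by 5.05, Msx3 by 4.21, Lhx1 by 4.20, Ptf1a by 3.05 and Pax3 by 2.62, the last with NP arrays at 5.60 and 7.16. The dorsal organizer gene Msx1 rose by 2.70. Ventral factors also rose: Mnx1 by 2.68, Olig2 by 1.90, Nkx6-1 by 1.27 and Nkx2-2 by 0.63, whereas Shh itself differed by 0.66 without passing the test. Of the forebrain and midbrain factors, Wnt1 rose by 2.86, Lhx2 by 0.79 and Emx2 by 0.75, Otx2 and Hesx1 fell, and En1, En2, Otx1, Nkx2-1, Emx1 and Lmx1a did not pass the test.

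Neuronal genes had begun to rise, unevenly. Of 34 pan-neuronal genes 24 rose and 4 fell, with a median of 1.57, or 0.96 when the probe sets of a gene were averaged. Nefm, the medium neurofilament, measured 2.72 and 3.03 at ES and 7.45 and 7.95 at NP. Dcx, a microtubule protein of young neurons, went from 3.25 and 3.30 to 7.42 and 7.93, and to 10.30 and 10.57 at TN. Nsg2 rose by 4.02, the RNA-binding protein Elavl4 by 3.73 and Tubb3, the neuronal tubulin, by 1.38. The genes that fell were Stmn2, Nefh, Celf5 and Uchl1. Stmn2, which destabilizes microtubules in growth cones, measured 10.85 and 10.83 at ES, 8.30 and 8.48 at NP and 11.72 and 11.63 at TN; its other probe set fell too, by 1.15.

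Synaptic and membrane genes moved less. Of 36 genes of synaptic vesicles and release 13 rose and 4 fell with a median of 0.17, led by Syt11 (2.87), Sncg (2.11), the SNARE protein Snap25 (2.05) and Rims2 (2.03). Of 30 voltage-gated channel subunits 8 rose (5 without ES array a or NP array b, or with probe sets averaged) and 3 fell, with the calcium channel Cacna1h at 2.50 and the auxiliary subunit Cacna2d3 at 1.88. Of 27 glutamate and GABA receptor genes 5 rose (fewer without ES array a, ES array b or NP array b) and 1 fell. Of these receptor genes 18.5% were higher, near the share over all genes, and 3.7% lower, and of the channel subunits 26.7% and 10%. Over all genes the shares were 19.9% and 19.0%. Grik5 rose by 1.79, the scaffold Gphn by 1.67 and Gria2, from 2.99 and 2.98 to 3.80 and 3.61, by 0.72. Genes of axon guidance and adhesion were further along, with 31 of 47 higher and 2 lower and a median of 1.11: the ephrin receptor Epha3 rose by 5.40, Nrcam by 4.34, the semaphorin receptor Nrp1 by 4.22 and the netrin receptor Unc5a by 3.71. Calls of Gria2 and of the potassium channel Kcnc1 (1.16) were lost when the probe sets of a gene were averaged, at 0.20 and 0.28.

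Rest fell at this step. It measured 9.76 and 9.66 in the ES arrays, 7.76 and 7.49 in the NP arrays and 5.04 and 4.64 at TN, and the ES to NP difference was -2.08 (SE 0.17, 4.23-fold, adjusted p = 2.05e-05, limma). Of its 4 probe sets 3 were called, with differences of -2.08 to -2.29, and the fourth differed by -0.30 (adjusted p = 0.162 over all probe sets). Most of its listed partners did not fall. Of 20 genes listed as REST and its corepressors 10 rose and 3 fell (50% and 15%, against 19.9% and 19.0% of all genes). Rest itself is among those that fell, and the splicing factor Srrm4 among those that rose. Among the corepressors Rcor3 rose by 1.19, Phf21a by 1.15, Rcor2 by 0.90 and Rcor1 by 0.88, the small phosphatases Ctdspl by 1.15 and Ctdsp2 by 1.08, and Sin3a fell by 0.85. The call of Rcor3 was lost when its probe sets were averaged (0.43). Srrm4, a splicing factor that makes the Rest transcript encode a truncated protein in neurons, rose by 1.81, from 3.23 and 3.0 to 4.49 and 5.37.

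Genes listed as bearing an RE1, the element REST binds, moved in both directions. Of 50 measured 17 rose and 11 fell, with a median of 0.11, where 19.9% and 19.0% of all genes did; without ES array b or NP array b 7 fell. Nefm rose by 4.82, the granule protein Chgb by 3.38, the neuropeptide Sst by 3.05 and Scg3 by 2.86, while Stmn2 fell by 2.45, Nmnat2 by 2.44, Nefh by 2.40 and Celf5 by 1.46. Syt4, Bdnf, Vgf, Scn2a and Celsr3 did not pass the test.

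Subunits of chromatin complexes moved in opposite directions. In the BAF remodelling complexes 10 of 20 subunits rose and 3 fell (50% and 15%, against 19.9% and 19.0% of all genes). Smarca2 rose by 1.75 and Smarcd3 and Smarcc2 by 1.58 and 1.5, and Actl6b, the actin-like subunit of neurons, by 0.66, from signals under 4, while Actl6a, its counterpart in dividing cells, fell by 1.07. Of 29 Polycomb subunits and histone demethylases 7 rose (24.1%), near the share over all genes, and 10 fell (34.5%), with a median of -0.08. Within the canonical PRC1, Cbx7 fell by 3.59, from 8.54 and 8.65 to 4.91 and 5.09, and Cbx2 rose by 1.60; Phc1 fell by 2.90 and Phc2 rose by 2.48; Bmi1 rose by 2.94, from 4.91 and 5.03 to 7.94 and 7.89. In PRC2, Eed fell by 1.33, Suz12 by 0.77 and Ezh1 by 1.47, while Ezh2 differed by 0.36 and did not pass the test. Utf1, a chromatin protein of ES cells placed in the same list, fell by 6.2.

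Signalling genes moved both ways. Of 25 LIF, BMP and FGF components 10 rose and 11 fell. Feedback genes of FGF signalling fell, Spry4 from 7.05 and 7.25 to 3.73 and 3.57, Spry2 by 2.99 and Etv4 by 2.11, as did the LIF receptor Lifr (-1.63), Stat3 (-0.96) and Socs3 (-1.81). The receptors Fgfr3 and Fgfr2 rose by 2.67 and 2.18, and Id3, a BMP target, rose from 6.52 and 6.39 to 10.84 and 10.93. In the Wnt pathway 20 of 36 rose and 1 fell: the receptor Fzd3 rose by 4.85, Fzd8 by 3.46, the stem cell receptor Lgr5 by 3.01, Wnt1 by 2.86 and the target Axin2 by 1.30, while Fzd5 fell by 3.41.

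E-cadherin fell and N-cadherin rose. Cdh1 (E-cadherin) measured 8.88 and 9.07 at ES and 7.17 and 6.35 at NP, and Cdh2 (N-cadherin) 3.84 and 3.32 against 8.44 and 8.70. Of 29 cadherin and epithelial junction genes 14 fell and 8 rose, with a median of -0.48; without ES array a or NP array a 3 rose. The clathrin adaptor subunit Ap1m2 (-1.91), the tight junction protein Marveld3 (-1.78) and Epcam (-1.07) fell, while the simple keratins Krt18, Krt19 and Krt8 rose by 1.26, 0.75 and 0.70.

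Cell cycle genes moved in both directions, with 19.6% higher and 30.4% lower against 19.9% and 19.0% of all genes. Of 46 measured 9 rose and 14 fell, with a median of -0.23, but the number lower was 6 to 8 without any single ES or NP array. Mki67, Pcna, Top2a and Cdk1 differed by 0.10, 0.15, -0.08 and -0.23 and did not pass the test. Ccnd2, the D-type cyclin of progenitors, measured 5.79 and 6.82 at ES and 11.97 and 12.21 at NP, a rise of 5.78 (SE 0.28). Ccnd1 rose by 1.37 and Cdk6 by 1.22, the inhibitor Cdkn1c by 3.32, while the S-phase cyclin Ccne1 fell by 1.64 and Mybl2, a driver of mitotic genes, by 3.71. Of 19 apoptosis and p53 target genes 7 fell and 4 rose, the risers near the share over all genes. The BH3 protein Pmaip1 (Noxa) differed by -3.05 and Bcl2, which protects cells, by 1.5. Of 21 immediate-early and stress genes 8 fell and 1, Jund, rose; Junb fell by 2.09, Dusp1 by 1.84 and Arc by 1.75. Against 19.0% lower and 19.9% higher over all genes, 6 of 21 glycolysis genes fell and 2 rose, with Pfkp falling from 10.21 and 10.10 to 7.47 and 6.95, and 5 of 16 cholesterol synthesis genes fell and 2 rose, with Pmvk at -1.09 and Lss at -0.57, whose call was lost when probe sets were averaged (-0.32).

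Imprinted genes moved in both directions. Of 26 measured 12 rose and 5 fell, with a median of 0.42. Dlk1, a Notch-like membrane protein, measured 4.41 and 3.95 at ES and 9.05 and 9.07 at NP, the zinc finger gene Plagl1 6.73 and 6.37 against 11.37 and 11.24, and Igf2, a fetal growth factor, 6.78 and 7.06 against 11.49 and 11.51. The Dlk1 call rests on probe sets ending in _x_at or _s_at, and without them the gene differed by 0.074. Ndn rose by 3.10 and Mest by 2.10. Phlda2 fell by 3.25 and Rian, a long RNA of the Dlk1 locus, by 1.18.

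Markers of cells outside the neural lineage were mixed. Of 23 endoderm genes 9 rose and 5 fell, with a median of 0.50, or 0.92 without the dimmest 30% of genes. Foxa1 measured 3.29 and 2.84 at ES and 8.78 and 8.11 at NP, and Foxa2, which the floor plate of the neural tube makes as well, 3.27 and 3.97 against 7.28 and 7.30. Sox17 went from 3.65 and 4.75 to 6.85 and 7.21, and Apoa1 from 4.18 and 4.32 to 7.60 and 8.79. Afp, of yolk sac and liver, measured 2.88 and 2.81 against 5.05 and 7.12. Gata4, at 3.66 and 5.45 against 5.36 and 6.49, overlapped between stages and did not pass the test. The mean of the 6 fixed endoderm markers was 3.63 and 4.49 in ES arrays a and b and 6.01 and 6.86 in NP arrays a and b, so array b was the higher at each stage, and both were at 3.19 and 3.62 in the terminal neurons. Without NP array b 7 endoderm genes were called higher, and without ES array b 11; 1 was called lower without ES array b and 2 without NP array a. Rbp4 and Foxa1, in the retinoic acid and endoderm lists, rose between the stages as these markers did. Rbp4 was also higher in NP array b, while Foxa1 was higher in array a at each stage. What part endoderm cells had in the rise of either gene was not tested.

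Among 25 genes that mark mesoderm or muscle, 4 rose and 6 fell, near the shares over all genes; the early mesoderm factors Mesp1, Mesp2, Tbx6 and Mixl1 stayed at signals under 3.7. Tagln fell by 2.54 and Des by 1.72, and Hand2 rose from 2.57 and 2.68 to 4.23 and 3.98, a call lost when probe sets were averaged (0.31). Acta2 fell by 2.21 on its brightest probe set, but the probe set left after exclusion of those ending in _x_at or _s_at differed by 0.067. Of 18 neural crest genes 7 rose and 1 fell, the risers including Msx1, Msx2 and Pax3, which the dorsal neural tube shares. Of the 4 genes fixed as crest markers Snai2 rose by 0.91, from 3.53 and 3.49 to 4.28 and 4.56, and Sox10, Foxd3 and Tfap2a did not pass the test. Of 27 fibroblast and matrix genes 7 rose and 8 fell (25.9% and 29.6%, against 19.9% and 19.0% of all genes). Their median was -0.15, with Igfbp4 at 3.28, Col3a1 at 3.21, Thy1 at -2.73 and S100a6 at -5.39. Of 16 astrocyte genes 7 rose and 3 fell, and Gfap, Aqp4 and S100b stayed under 3.6 in the ES and NP arrays. Of 14 oligodendrocyte genes 4 rose (28.6%) and 1, Cnp, fell (7.14%). Olig1 went from 3.18 and 2.99 to 6.30 and 5.71. Of 16 blood and microglia genes none rose and Cd68 and Laptm5 fell, by 2.99 and 1.16.

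**Figure D4:**
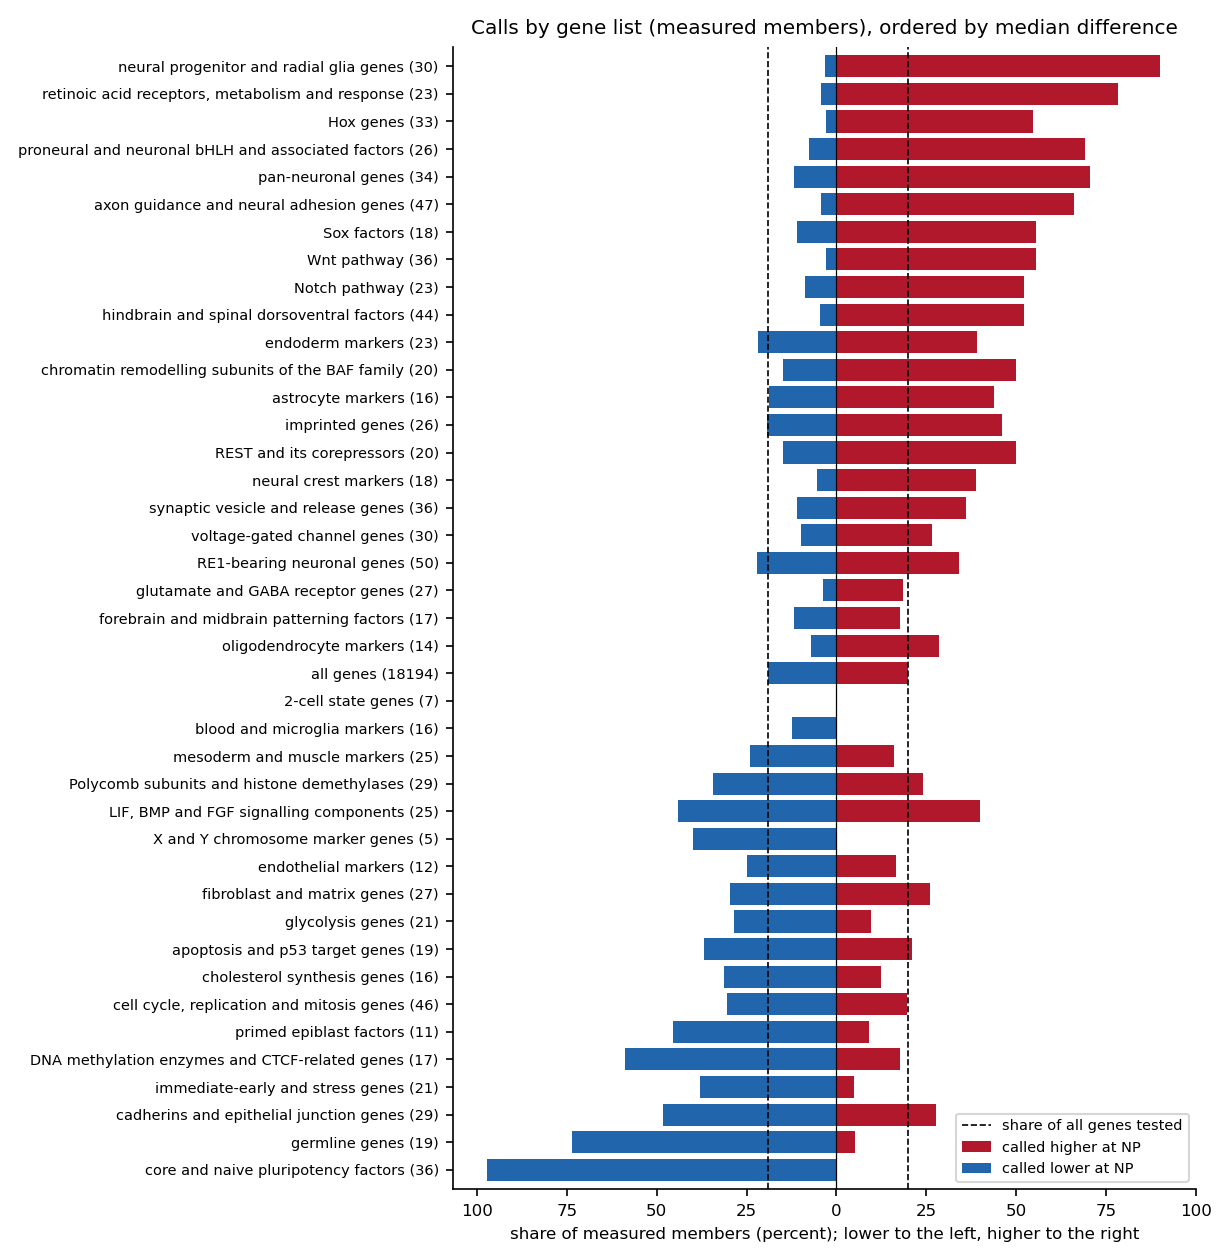
Share of the measured members of each gene list called higher (red, to the right) or lower (blue, to the left) at NP, in order of the list's median difference, with the number measured in brackets and dashed lines at the shares of all genes, 19.9% and 19.0%. Pluripotency and germline genes stand at the bottom, and neural progenitor, retinoic acid and Hox genes at the top, while glutamate and GABA receptors and forebrain and midbrain factors lie near the share of all genes called higher.

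The same step was measured in the cells labelled RESTwt, with 3 ES and 3 NP arrays on another platform that was normalized separately, so values stand side by side with no test between them. There 13375 of 19938 genes (67.1%) were called, 31.0% higher and 36.1% lower, and 17.7% were called at 2-fold or more, the same share as in the mixed-strain step; the arrays did not overlap for 69.8%. Across the 16553 genes on both platforms the differences correlated with r = 0.773 (Pearson) and 0.701 (Spearman), a description over genes that are not independent. Of 3115 genes called at 2-fold or more in the mixed-strain cells and present on both platforms, 2974 (95.5%) moved in the same direction in the RESTwt cells. Of the genes called higher in the mixed-strain step 86.0% were called higher in RESTwt, and of those called lower 78.0% were called lower. Conversely, 51.9% of genes called higher in RESTwt were called higher in the mixed-strain step, and 44.0% of those called lower were called lower. Of the 16553 shared genes 34.9% were called higher and 35.6% lower in RESTwt, and 21.1% and 20.1% in the mixed-strain step.

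The largest falls and rises were larger in the mixed-strain step. Pou5f1 differed by -7.83 there and by -3.88 in RESTwt, Nanog by -7.40 and -2.95, Tdgf1 by -8.28 and -5.27 and Dppa4 by -6.47 and -2.67, and the median of the pluripotency list was -4.69 and -2.84. Over the 12 largest falls the mixed-strain difference exceeded that of RESTwt by 1.24 (Zfp42) to 4.44 (Nanog), with a median of 3.26. Over the 11 largest rises on both platforms the excess was 0.60 (Cyp26a1) to 2.18 (Igfbp5), with a median of 1.57: Hoxa5 differed by 7.84 and 7.15, and Nr2f1 by 7.21 and 5.58. These genes were chosen for their size in the mixed-strain step. Genes of axon guidance had a median of 1.11 in the mixed-strain and 2.04 in the RESTwt step, and Dcx differed by 4.40 and 5.92. Hoxb7 and Hoxa7, not called in the mixed-strain cells, differed by 2.79 and 2.21 in RESTwt and were called higher there, while Hoxb1 differed by 4.58 and 1.23. Neurod1 fell by 0.46 in the mixed-strain step and was called higher, by 2.87, in RESTwt. Whether cells, platform or normalization account for these differences cannot be told apart.

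Of 1929 genes called at 2-fold or more in both steps 10 went in opposite directions. Lower in the mixed-strain and higher in the RESTwt step were Xist, the annexins Anxa1 and Anxa2, Aplp1, Plekhg1, Igfbp3 and Myof, and the reverse held for Zdbf2, Kbtbd11 and Olig1. Anxa1 measured 8.56 and 8.43 at ES and 6.42 and 5.71 at NP in the mixed-strain arrays, and its mean rose from 5.97 ± 0.46 to 7.18 ± 0.34 (SD, n = 3 each) in RESTwt. Kbtbd11 went from 5.17 and 5.41 to 8.41 and 8.42, against a mean of 6.50 ± 0.37 and then 5.10 ± 0.21 in RESTwt. Xist, the RNA that coats an inactive X chromosome, measured 6.05 and 5.58 at ES and 4.07 and 4.11 at NP, against 4.64 ± 0.06 and then 8.32 ± 0.45 in RESTwt; of its 3 probe sets on the mixed-strain platform only this one was called, and the others differed by 0.053 and -0.070. The Y chromosome gene Eif2s3y, not among the 10, measured 8.74 and 8.62 at ES and 7.96 and 7.48 at NP in the mixed-strain arrays. Its means in RESTwt, on the other platform, were 2.52 at ES and 2.34 at NP. The 10 genes were picked by their values, and the difference between the lines was not tested.

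**Figure D5:**
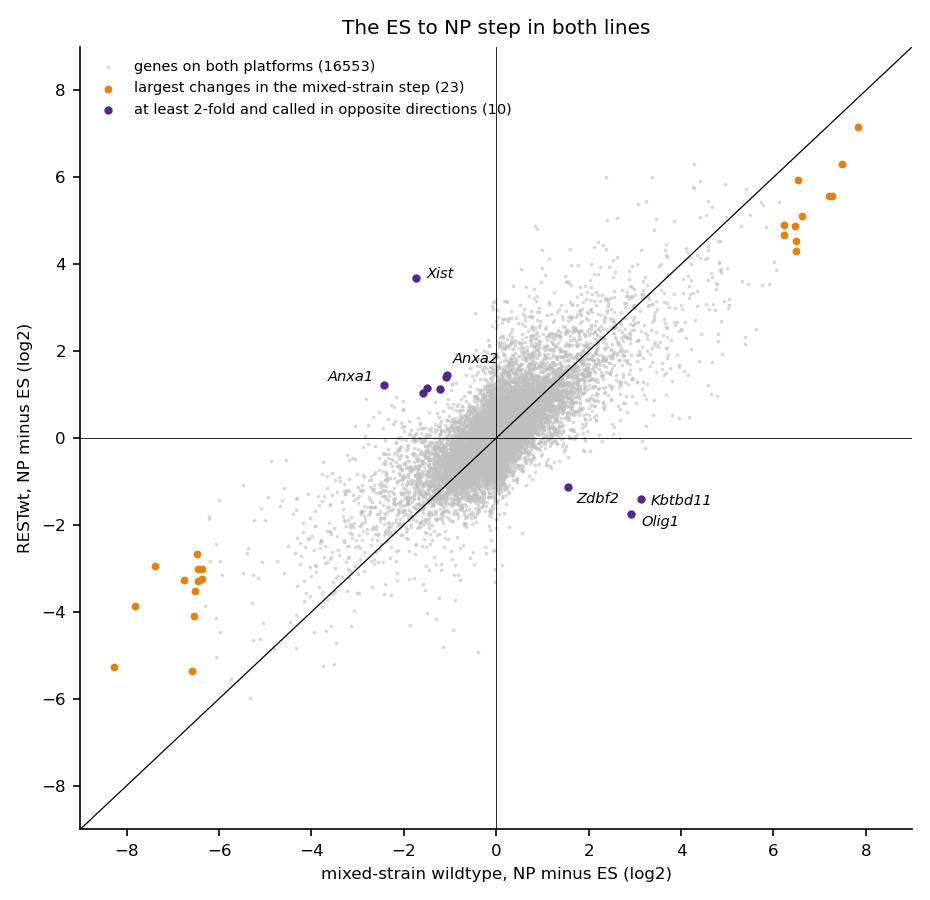
Difference between NP and ES (log2) in the mixed-strain wildtype cells (x axis) against the same difference in the RESTwt cells (y axis) for the 16553 genes on both platforms, with the line of equality. The largest changes of the mixed-strain step (orange) have the same sign in both and lie nearer to 0 in RESTwt, and the 10 genes called at 2-fold or more in opposite directions (purple) include Xist, Anxa1, Kbtbd11 and Olig1.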

How the data were processed

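Total RNA was hybridized to Affymetrix arrays. The authors deposited 1 log2 signal per probe set. The submitters' processing notes name oligo 1.14.0; how background was corrected and signals summarized and normalized is not given in the sources used here, and a shift common to all genes of an array could have been removed. The values were used as deposited. Of 45101 probe sets, 34958 carried a single gene symbol in the platform annotation, 932 several and 9211 none; 34754 matched the RefSeq table by gene number. The brightest probe set of a gene represented it (18194 genes; 9012 had more than 1). Means per stage were fitted to the 6 mixed-strain arrays with limma 3.58.1 in R 4.3.3 (lmFit, eBayes, two-sided, Benjamini-Hochberg over all genes), tested on simulated data; the 18 other arrays were fitted separately. No signal depth exists for arrays; their number limits the precision. Same-letter arrays did not deviate together (r = 0.085 between ES and NP), so letters were not used as pairs.

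The members and gene lists were chosen with earlier results of these data known. Named genes are Rest, the 12 largest called rises and falls (predicted genes, olfactory receptors and small RNAs left out), for each list up to 4 called genes of largest difference (or the 2 brightest where none was called) and 3 level controls; other list members are named after their values were seen. Promoters come from RefSeq (GRCm38.p6). Alternatives were other normalizations, filters, probe set rules, weights and array omissions.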

Additional observations from a re-analysis of the deposited data

Results flagged for a closer look

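Of the genes named by the rule, 6 moved in opposite directions in the mixed-strain and the RESTwt cells, with the ES and NP arrays apart and a call in each; the difference between the lines was not tested. The smooth muscle actin Acta2 differed by -2.21 in the mixed-strain and 0.72 in the RESTwt step, Pou3f1 by -2.06 and 0.33, Xist by -1.73 and 3.67, and the myelin enzyme Cnp by -1.06 and 0.78. The heart factor Hand2 differed by 1.48 and -0.30, and Olig1 by 2.92 and -1.74. With probe sets ending in _x_at or _s_at left out, the calls of Acta2 (0.067), Xist (-0.070) and Cnp (-0.37) in the mixed-strain step were lost. The call of Hand2 in that step was lost when the probe sets of a gene were averaged (0.31).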

How the results depend on the processing

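With 2 arrays a stage, the number of genes called lay between 5335 (without ES array a) and 7521 (array weights) in the settings that keep 1 value a gene, against 7071. Leaving out an array gave 5335 to 7368 calls, 2752 to 3722 higher and 2583 to 3646 lower, and 3119 to 3356 at 2-fold or more; the lone array of a stage was then assumed to vary like the other stages. With every probe set as a feature of its own, 13013 of 45101 were called, 6577 higher and 6436 lower, 5808 at 2-fold or more. The replicate block by letter gave 7095 calls with 6 arrays and 7289 with 4, and changed no call of the 159 named genes. Medians of lists depended on the probe set rule and on dim genes. Averaging probe sets gave -3.83 for pluripotency factors, 2.14 for neural progenitor genes, 2.17 for Hox genes, 0.62 for hindbrain and spinal factors and 0.96 for pan-neuronal genes. Leaving out the dimmest 30% of genes gave -5.04, 2.95, 4.41 and 1.42 for the first 4 of these, 2.05 for proneural and 3.58 for retinoic acid genes. Quantile normalization gave 0.59 for hindbrain and spinal factors. Over 16 settings 14 named genes lost a call in at least 1, among them Glra1, Sc5d and Eif2s3y without single arrays, and Acta2 reversed to 0.067 without probe sets ending in _x_at or _s_at; the cause was not tested. Of 38 counts of 1 to 5 called members in a list, 16 moved by over 1.5 times without an array. In the RESTwt step, alternatives chosen after seeing the data gave 12479 to 13375 calls.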

Other observations

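Probe sets with no gene symbol or several, 10143 in all, were fitted as well; 617 were called higher and 752 lower at NP. Of 4921 genes with more than 1 probe set and a call on any, 74 had probe sets called in both directions (1.5%), none of them a gene named by the rule. The median difference of the mixed-strain step lay between -0.06 (chromosome 17) and 0.03 (chromosome 13) over the autosomes and was 0.04 for the 617 genes on chromosome X. In the RESTwt step the median of the 739 genes on chromosome X was -0.22, and those of the autosomes lay between -0.10 and 0.00.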
